A study of Homo sapiens with 44 samples.

Results

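The gene symbols that begin with PSM name most parts of the human proteasome, and every row of the deposited count table whose symbol begins with PSM, a letter A to G and a digit was taken. That gave 49 of 23367 gene rows, and 44 of them had enough counts to be tested, out of 14534 genes tested in all. By role, the rows comprised 8 alpha subunits (PSMA) and 7 constitutive beta subunits (PSMB) of the 20S core, 4 beta subunits of the immunoproteasome and thymoproteasome, 6 ATPases (PSMC) and 14 non-ATPase proteins (PSMD) of the 19S cap, 4 activator genes (PSME), the inhibitor PSMF1 and 4 assembly chaperones (PSMG). The pattern also caught PSMC3IP, whose product (HOP2) works in homologous pairing of chromosomes and is no proteasome part. It is described apart.

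Tet plus cells were IMR5/75 (human neuroblastoma cells in which MYCN is amplified) given tetracycline to switch on a stably carried short hairpin RNA (shRNA) against MYCN. Tet minus cells were the same cells without tetracycline. Both were held at the start of S phase with thymidine for 18 h and sampled at 0, 3, 6, 8, 10, 12, 14, 16, 18, 20 and 22 h after its removal, with 2 libraries per arm and time, 44 in all. The comparison asks how lowering MYCN changes transcript levels along the cell cycle. All cells came from a single line and carried the hairpin. No library had tetracycline without the MYCN hairpin, or a control hairpin, so what tetracycline or off-target silencing did by itself cannot be told apart from what less MYCN did.

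The 26S proteasome is the protease that destroys proteins marked with ubiquitin, cyclins among them, and it is therefore required for passage through mitosis. Its barrel-shaped 20S core holds the active sites between rings of alpha and beta subunits, and the 19S cap binds, unfolds and threads in the substrate. Cells under proteasome shortage are known to raise most subunit genes together through the transcription factor NRF1 (NFE2L1), which binds antioxidant response elements, while interferon induces the immunoproteasome subunits and the PA28 activator genes. MYC proteins bind the E-box letters CACGTG.

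Promoter letters were read for these motifs because most members shared a direction. RefSeq promoters (GRCh38.p14) were given for 43 of the 49 rows, and the 250 bases before the start were searched on both strands. The E-box CACGTG occurred in 3 of the 43 (7.0%), namely PSMB3, PSME3 and PSMD9, and in 7.7% of 27305 genes. The antioxidant response element core TGACNNNGC occurred in 13 of the 43 (30.2%) and in 13.2% of all genes. The core of the interferon-stimulated response element, in capitals in PSMB10 below, was added after the sequences had been seen and occurred in 5 of the 43 (11.6%; PSMA4, PSMB4, PSMB10, PSME2 and PSMG4) and in 3.7% of all genes. A match is a description of letters and does not show that a factor binds. Shown are PSMB10, the member with the lowest fold change, PSMG1, the lowest assembly gene, PSME1, the only member that rose at 0 to 14 h, and the 2 members that hold an E-box and fell. Capitals mark the motif matches. Counted from the gene start, the E-box of PSMB3 lies at -238 and its TGACNNNGC core at -104, so they share no letter, and the E-box of PSME3 lies at -42. The TGACNNNGC cores of PSMG1 and PSME1 lie at -183 and -86, and the interferon element of PSMB10 at -21.
PSMB3, chr17:38752491-38752740, + strand: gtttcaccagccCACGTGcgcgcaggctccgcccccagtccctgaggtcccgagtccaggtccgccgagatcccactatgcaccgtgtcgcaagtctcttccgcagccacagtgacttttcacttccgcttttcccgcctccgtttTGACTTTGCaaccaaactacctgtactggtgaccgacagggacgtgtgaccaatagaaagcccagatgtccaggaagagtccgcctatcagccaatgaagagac
PSME3, chr17:42833147-42833396, + strand: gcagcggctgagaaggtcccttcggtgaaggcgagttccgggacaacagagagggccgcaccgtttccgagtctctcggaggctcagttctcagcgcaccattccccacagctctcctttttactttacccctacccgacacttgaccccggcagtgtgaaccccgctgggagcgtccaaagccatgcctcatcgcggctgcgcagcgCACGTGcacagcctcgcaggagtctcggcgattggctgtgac
PSMG1, chr21:39183452-39183701, - strand: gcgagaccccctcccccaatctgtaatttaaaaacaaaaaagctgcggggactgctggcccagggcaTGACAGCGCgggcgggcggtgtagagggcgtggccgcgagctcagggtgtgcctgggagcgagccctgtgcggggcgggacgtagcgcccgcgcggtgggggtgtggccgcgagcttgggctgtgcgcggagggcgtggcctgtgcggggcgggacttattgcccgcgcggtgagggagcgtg
PSME1, chr14:24135944-24136193, + strand: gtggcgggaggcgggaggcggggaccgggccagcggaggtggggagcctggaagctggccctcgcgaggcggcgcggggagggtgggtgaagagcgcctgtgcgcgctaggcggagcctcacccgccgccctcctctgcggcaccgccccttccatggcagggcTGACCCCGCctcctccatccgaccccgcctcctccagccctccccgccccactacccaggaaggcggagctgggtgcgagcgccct
PSMB10, chr16:67936851-67937100, - strand: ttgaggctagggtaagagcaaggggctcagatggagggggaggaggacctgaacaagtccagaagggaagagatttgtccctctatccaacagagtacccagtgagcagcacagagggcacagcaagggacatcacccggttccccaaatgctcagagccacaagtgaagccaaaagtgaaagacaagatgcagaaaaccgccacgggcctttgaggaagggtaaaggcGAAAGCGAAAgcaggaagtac

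The libraries held 10.9 M to 25.3 M gene counts (median 20.1 M). MYCN was lower in Tet plus cells by 0.27 (log2 fold change -0.27, SE 0.0460) at 0 to 14 h, and the 6 neuroblastoma markers were expressed in every library. Of these, CHGA (log2 fold change 0.66, edgeR adjusted p = 7.8e-06) and HAND2 (0.28, edgeR adjusted p = 0.0122) were higher in Tet plus cells at 0 to 14 h. The others had positive values and did not pass an adjusted p of 0.05. Markers of other cell types summed to 20.0 to 34.3 CPM (library-scaled counts) in Tet plus, against 10.9 to 30.6 CPM in Tet minus libraries, mostly COL1A1. Of the 5 that could be tested, COL1A1 and EPCAM were higher in Tet plus cells, CD3E had 0 counts in every library and KRT18 and PECAM1 stayed at or below 0.206 CPM. Their part in the results was not tested. At 0 to 14 h the arms shared sequencing lanes. At 16 to 22 h the lane numbers in the titles differed between the arms, so arm and lane or sequencing run cannot be told apart there. Titles of the Tet plus libraries of those times do not name the arm, which was taken from the sample descriptions. Some repeat both the barcode and the lane number of an early library, so equal lane numbers there do not mean a shared run. Spiked-in ERCC transcripts took 0.0543% to 0.376% of counts in the 8 Tet plus libraries of 16 to 22 h. In the 8 Tet minus libraries of those times they took 1.13% to 3.43%. At 0 to 14 h they took 0.736% to 5.85% in Tet plus, against 0.806% to 4.25% in Tet minus libraries.

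Between 0 and 14 h most proteasome genes were modestly lower in Tet plus cells. Of the 44 tested members, 34 fell and 1 rose, where 21.3% of all tested genes fell and 20.1% rose. The median log2 fold change of the members was -0.21, a median change of -13.8%, beside 0.01 for all genes tested, and 42 of the 44 members had a negative value. Summed over all PSM rows, the level was 6311, 7823 and 8264 CPM (lowest, median and highest of 14) in Tet plus, against 8217, 8891 and 10168 CPM in Tet minus libraries. The ranges overlapped slightly, and the Tet plus sum was below its same-numbered Tet minus partner in 14 of 14 pairs. Here and throughout the test was edgeR's quasi-likelihood test, the p adjusted by Benjamini-Hochberg over all 14534 genes with a threshold of 0.05, and a log2 fold change is Tet plus over Tet minus. The fit treated the 44 libraries as independent. If the times of a replicate number came from 1 experiment, the times and the 14 pairs are serial samples. A small p over several times then does not measure the spread between experiments. In bulk RNA, fewer cells of a kind and less RNA per cell cannot be told apart. Levels are relative to the other transcripts: scaled to the ERCC transcripts, 37 of 44 members were still negative at 0 to 14 h, none passed the test (0.0275% of all genes fell), and the members' median was -0.09 where that of all genes was 0.13, a gap of -0.22. ERCC scaling moves all genes of a library by the same factor, so a gap near that without it (-0.22) was fixed in advance.

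The direction repeated along the course. In 27 of 44 members the Tet plus mean was lower at each of the 7 times, as it was for 18.1% of all genes, and in 18 of 44 it was lower in each of the 14 same-numbered pairs, as for 8.69% of all genes. Within the lanes shared by 0, 3 and 6 h, 17 members fell (10.5% of all genes), within those of 8, 10 and 12 h 22 fell (11.7%), and at 14 h alone 6 fell (3.34%). The members' medians there were -0.21, -0.21 and -0.27. The library Tet plus 6 h replicate 2 stood apart: 26 of 44 members had their lowest Tet plus level there, as had 15% of all genes. Without it, 32 members fell and 2 rose, the second being PSME2.

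**Figure D1:**
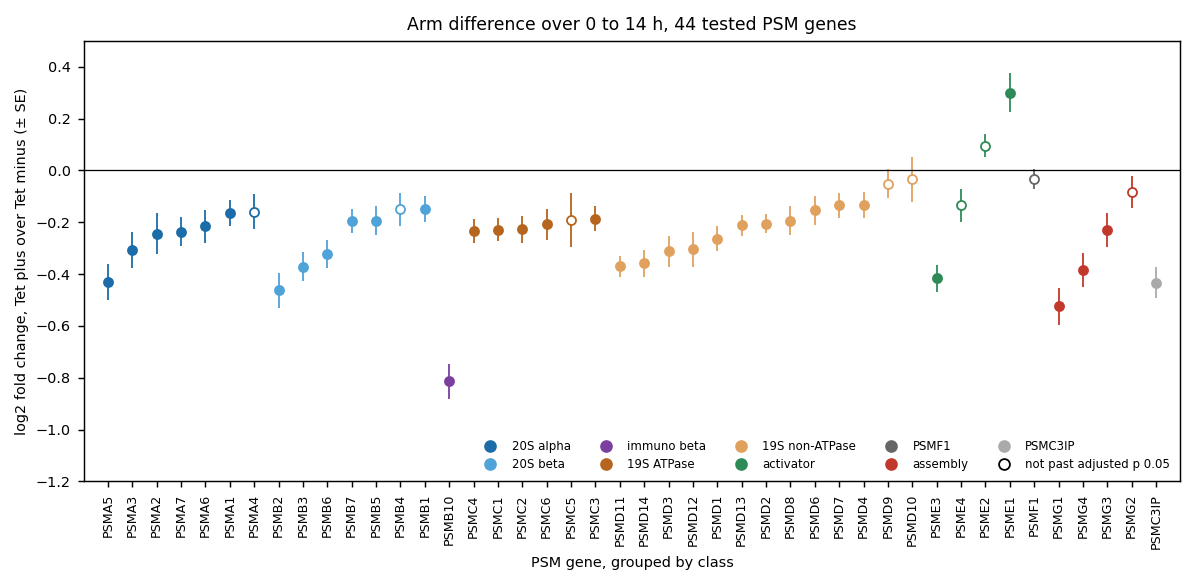
Log2 fold change of each tested PSM gene over 0 to 14 h, Tet plus over Tet minus, with its standard error (y axis), genes grouped by class (x axis). Filled points passed the test: 34 lie below 0 (21.3% of all genes) and PSME1 lies above it (20.1%), and PSMB10 is the lowest. With ERCC scaling 37 of 44 were below 0 and none passed.

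Alpha subunits form the outer rings of the core and the gate through which substrates enter. Of 7 tested, 6 fell (21.3% of all genes), with a median of -0.24. PSMA5 had 198, 238 and 296 CPM (lowest, median, highest of 14) in Tet plus, against 249, 319 and 426 CPM in Tet minus libraries, and its log2 fold change was -0.43 (adjusted p = 1.37e-05, SE 0.0685). The ranges of the arms overlapped over the whole course, but at each of the 7 times no Tet plus library reached a Tet minus library. PSMA3 had 68.2, 75.9 and 97.5 CPM in Tet plus, against 81.7, 96.3 and 135 CPM in Tet minus libraries, a log2 fold change of -0.31 (adjusted p = 0.000724, SE 0.0687), with the mean lower at 7 of 7 times. The other 4 that fell were PSMA1, PSMA2, PSMA6 and PSMA7, with log2 fold changes from -0.24 to -0.16. PSMA4 missed the threshold at a value of -0.16 (adjusted p = 0.0601, SE 0.0677). PSMA8, the alpha subunit of the testis, had 0 counts in every library.

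Of the 7 constitutive beta subunits, which carry or frame the active sites, 6 fell (21.3% of all genes), with a median of -0.20. PSMB2, which carries no active site, had 116, 153 and 182 CPM in Tet plus, against 174, 215 and 262 CPM in Tet minus libraries, a log2 fold change of -0.46 (adjusted p = 3.71e-06, SE 0.0670). PSMB3, also without an active site, had 103, 159 and 182 CPM in Tet plus, against 167, 194 and 233 CPM in Tet minus libraries, a log2 fold change of -0.37 (adjusted p = 4.68e-06, SE 0.0547). Both genes were lower in Tet plus in each of the 14 pairs. The 3 catalytic subunits all fell: PSMB6 (caspase-like) by 0.32, PSMB7 (trypsin-like) by 0.20 and PSMB5 (chymotrypsin-like) by 0.19 on the log2 scale, with adjusted p from 2.8e-05 to 0.00815. PSMB4 did not pass (-0.15, adjusted p = 0.0601, SE 0.0637). PSMB1 passed narrowly (-0.15, adjusted p = 0.0196), and the omission of any of 4 of the 28 libraries cost it the call (adjusted p at most 0.0661, with Tet minus 8 h replicate 2 left out).

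Of the subunits that interferon switches on, PSMB10 was the only one with enough counts to be tested. PSMB10 (MECL-1), which takes the place of PSMB7 in the immunoproteasome, was the member with the lowest fold change at 0 to 14 h. It had 11.4, 16.0 and 18.8 CPM in Tet plus, against 23.0, 25.9 and 32.7 CPM in Tet minus libraries, and all 14 Tet plus values lay below all 14 Tet minus values. Its log2 fold change was -0.81 (adjusted p = 4.57e-10, SE 0.0686), a change of -43.1%. It was the only member past the threshold at each of the 7 times taken singly, with log2 fold changes from -1.23 at 6 h to -0.67 at 8 h. Apart from 6 h, where it passed whichever of the 4 libraries was left out, these single-time calls rested on few libraries: at 3 h 2 of the 4 libraries ended the call when left out, at 0, 10 and 14 h 3 of the 4, and at 8 and 12 h any of the 4 (adjusted p up to 0.410, edgeR). Without the filter on low counts it did not pass at 0, 8 and 10 h (adjusted p = 0.0599, 0.0677 and 0.0596), and with the replicate block it passed at all 7 times. At 6 h it had 12.1 and 11.4 CPM in Tet plus, against 25.9 and 29.1 CPM in Tet minus libraries. With ERCC scaling its value was -0.67 (adjusted p = 0.785).

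PSMB8 and PSMB9, the other subunits of the immunoproteasome, were listed at 0 in all 44 libraries, and PSMB11, the beta subunit of the thymus, had 4 counts in all. A count of 0 allows up to 0.120 to 0.267 CPM, depending on the library (3 counts, counting error only). TAP1, the neighbouring peptide transporter gene, was also at 0 and HLA-B had 1 count, whereas TAP2 and TAPBP had 839 and 20309 counts. Why these rows were at 0 was not tested. Of 8 tested genes of antigen presentation and interferon response, 0 fell and 1 rose at 0 to 14 h. Over all genes tested, 21.3% fell and 20.1% rose. The gene that rose was TAPBP (tapasin), by 0.25 (edgeR adjusted p = 0.0187, SE 0.0839). IRF1 and NLRC5, regulators of these genes, had values of -0.07 and 0.30 and did not pass.

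All 6 ATPases of the cap, the ring that unfolds substrates, had negative values within a narrow span, from -0.24 to -0.19. Of these, 5 fell (21.3% of all genes). PSMC4 had 117, 164 and 190.3 CPM in Tet plus, against 177, 189 and 229 CPM in Tet minus libraries, with a log2 fold change of -0.24 (adjusted p = 0.000184, SE 0.0462). PSMC1 had 211, 245 and 281 CPM in Tet plus, against 230.2, 290.2 and 357 CPM in Tet minus libraries, with a log2 fold change of -0.23 (adjusted p = 0.000162, SE 0.0444). Ranges overlapped in both genes, while the mean was lower at each of the 7 times. PSMC5 had a like value (-0.19) with an SE of 0.105 and did not pass (adjusted p = 0.151). Its level ran from 133 to 309 CPM in Tet plus, against 140.0 to 289 CPM in Tet minus libraries, and the replicates of Tet plus 0 h were 152 and 309 CPM. PSMC5 shares exon bases with FTSJ3 on the other strand, and the strand setting of the count is not given in the sources used here.

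Non-ATPase cap proteins form the scaffold, the ubiquitin receptors and the lid. Among them 11 of 13 tested members fell (21.3% of all genes), with a median of -0.21. PSMD11, a lid subunit that joins cap to core, had 106, 117 and 123 CPM in Tet plus, against 138, 149 and 159.7 CPM in Tet minus libraries. No Tet plus library reached any Tet minus library, and its log2 fold change was -0.37 (adjusted p = 5.25e-08, SE 0.0409). PSMD14, the deubiquitinase that removes the ubiquitin chain from the substrate, had 111, 152 and 185 CPM in Tet plus, against 145, 187 and 269.9 CPM in Tet minus libraries, a log2 fold change of -0.36 (adjusted p = 4.19e-06, SE 0.0524). The scaffold proteins PSMD1 and PSMD2 fell by 0.26 (SE 0.0477) and 0.21 (SE 0.0376), and the lid proteins PSMD3, PSMD12, PSMD13, PSMD8, PSMD6 and PSMD7 by 0.31, 0.31, 0.21, 0.19, 0.15 and 0.13 on the log2 scale. The ubiquitin receptor PSMD4 fell by 0.13 (adjusted p = 0.0368).

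The weakest of these calls rested on single libraries. Without any of 15 of the 28 libraries PSMD4 no longer passed (at most 0.101, with Tet plus 0 h replicate 2 left out). PSMD6 lost its call without any of 5 libraries (at most 0.0653, Tet minus 6 h replicate 2), and PSMD7 without any of 7 (at most 0.0777, Tet plus 6 h replicate 2). The 2 tested members that did not pass, PSMD9 (-0.05, SE 0.0553) and PSMD10 (-0.03, SE 0.0869), encode chaperones that help assemble the ATPase ring and leave before the cap is complete. PSMD5, a chaperone of the same step, had 32 counts over 18 of 22 Tet plus libraries and 9 counts over 8 of 22 Tet minus libraries and was not tested.

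The activators that can replace the 19S cap divided. PSME3 (PA28 gamma, nuclear) had 76.7, 88.4 and 119 CPM in Tet plus, against 104, 122 and 141 CPM in Tet minus libraries, a log2 fold change of -0.42 (adjusted p = 5.34e-07, SE 0.0531), and was lower in 14 of 14 pairs. PSME1 (PA28 alpha, induced by interferon) had 30.7, 55.5 and 61.9 CPM in Tet plus, against 34.4, 45.5 and 48.4 CPM in Tet minus libraries, a log2 fold change of 0.30 (adjusted p = 0.00197, SE 0.0745). It was the only member that rose, higher in 12 of 14 pairs. Its lowest Tet plus value was that of 0 h replicate 2, whose partner replicate had 61.1 CPM. PSME2 (PA28 beta, its partner in the ring) had 55.7, 68.5 and 76.8 CPM in Tet plus, against 57.9, 64.0 and 73.5 CPM in Tet minus libraries and did not pass (0.09, adjusted p = 0.0921, SE 0.0445). Its value was also higher in 12 of 14 pairs, and it passed with Tet plus 6 h replicate 2 left out (adjusted p = 0.0491), as it did with Tet plus 10 h replicate 1 left out (adjusted p = 0.0499). PSME4 (PA200) was at -0.13 (SE 0.0648) and the inhibitor PSMF1 (PI31) at -0.03 (SE 0.0387), and neither passed.

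Of the 4 chaperones that build the alpha ring, 3 fell (21.3% of all genes). PSMG1 had 32.8, 41.1 and 52.7 CPM in Tet plus, against 43.7, 61.1 and 75.2 CPM in Tet minus libraries, and its log2 fold change of -0.52 (adjusted p = 1.22e-06, SE 0.0707) was the lowest after PSMB10. PSMG4 had 4.66, 6.61 and 7.51 CPM in Tet plus, against 6.68, 8.09 and 10.2 CPM in Tet minus libraries, a log2 fold change of -0.38 (adjusted p = 2.59e-05, SE 0.0642), and at each of the 7 times its arms did not overlap. PSMG3, which pairs with PSMG4, fell by 0.23 (adjusted p = 0.00628, SE 0.0657). PSMG2, which pairs with PSMG1, was at -0.08 (adjusted p = 0.279, SE 0.0602) and did not pass. PSMG4 shares exon bases with TUBB2B and PSMG2 with CEP76, as PSME3 does with BECN1 and PSMD13 with SIRT3. PSME2 shares them with RNF31, and PSME1 with EMC9, a symbol that has no row here.

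**Figure D2:**
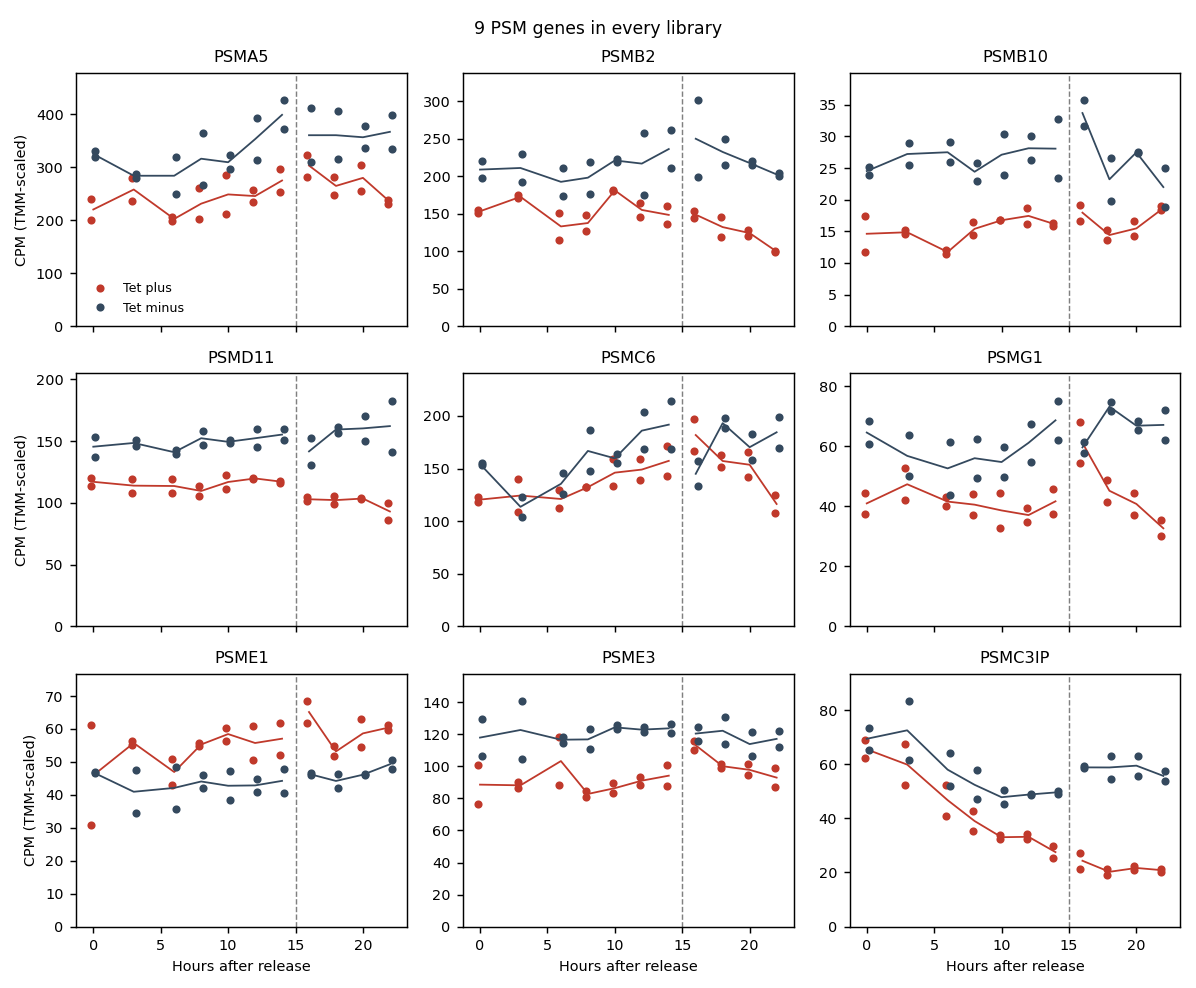
Library-scaled counts (CPM, y axis) of 9 PSM genes in every library against hours after thymidine removal (x axis); points are libraries, lines join the means of 2 libraries, and the dashed line parts the times at which the arms shared lanes from those at which they did not. PSMB10 and PSMD11 show no overlap of Tet plus and Tet minus libraries at 0 to 14 h. The PSME1 mean lies higher in Tet plus from 3 h on. PSMC3IP declines in Tet plus to 20.8 CPM at 22 h, against 55.7 CPM in Tet minus.

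PSMC3IP, the row that is no proteasome gene, fell at 0 to 14 h by 0.43 (adjusted p = 1.52e-06, SE 0.0592), but at 0 h the means were 65.5 CPM in Tet plus cells and 69.4 CPM in Tet minus cells (log2 fold change -0.08). At 14 h they were 27.5 CPM in Tet plus, against 49.6 CPM in Tet minus cells (-0.85, adjusted p = 0.00136), with 25.3 and 29.8 CPM in the Tet plus libraries against 50.2 and 49.0 CPM in the Tet minus libraries. The interaction test of whether the arm difference depended on time within 0 to 14 h did not pass for PSMC3IP, with an unadjusted p not under 0.05. Without the replicate block PSMC3IP was the only member whose level changed over 0 to 14 h in both arms (adjusted p = 3.28e-06 in Tet plus and 0.0140 in Tet minus cells). With the block PSMD10 and PSMD14 also passed in both arms. Time and lane set cannot be told apart in this test. Without PSMC3IP, 33 of 43 members fell and 1 rose at 0 to 14 h (21.3% and 20.1% of all genes). It shares exon bases with MLX on the other strand.

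Genes that work with the proteasome were lower in part. Of 18 partners, 9 fell and 1 rose (median -0.15), among them ADRM1, the cap's ubiquitin receptor RPN13 (-0.42, SE 0.0788), KIAA0368, a scaffold (-0.28, SE 0.0529), RAD23B, a shuttle for ubiquitinated proteins (-0.22, SE 0.0365), and UBE3C, a ligase bound to the cap (-0.21, SE 0.0386). POMP, the maturation factor of the core, named here after its value was seen, fell by 0.29 (adjusted p = 0.00147, SE 0.0695). Of 12 genes of ubiquitin and the p97 segregase, 5 fell and 0 rose (median -0.13), among them UFD1L (-0.24), NSFL1C (-0.21), VCP, p97 itself (-0.18), and FAF2 (-0.14). Of all genes 21.3% fell and 20.1% rose.

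Regulators of proteasome genes were mixed. NFE2L1 (NRF1) was at 0.10 (adjusted p = 0.116, SE 0.0506) and NFE2L3 at -0.27 (adjusted p = 0.386, SE 0.241), and neither passed. Of the 9 regulators, 3 fell: DDI2, the protease that activates NRF1 (-0.34, adjusted p = 2.66e-05, SE 0.0561), MAFF, a small MAF partner (-0.61, adjusted p = 0.000419, SE 0.129), and KEAP1, which restrains NRF2 (-0.18, adjusted p = 0.00337, SE 0.0475). NFE2L2 (NRF2) rose by 0.19 (adjusted p = 0.00978, SE 0.0592). Of 7 NRF2 targets, 2 fell and 0 rose: GCLM by 0.27 (adjusted p = 0.0197, SE 0.0920) and SRXN1 by 0.28 (adjusted p = 0.0269, SE 0.0988). By promoter, 4 of the 11 tested members with a TGACNNNGC core fell and 1 rose (median -0.16), beside 24 of 27 without it that fell and 0 that rose (median -0.23). With the E-box 2 of 3 fell (median -0.37), beside 26 of 35 without it (1 rose, median -0.21). With the interferon element 2 of 5 fell (median -0.16), beside 26 of 33 without it (1 rose, median -0.22). These splits were not tested, and 21.3% of all genes fell.

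Taken singly, with 2 libraries against 2, few members passed at any early time. The numbers called at 0, 3, 6, 8, 10, 12 and 14 h were 1, 1, 4, 3, 2, 3 and 6, all lower. Of all genes, 1%, 1.7%, 4.44%, 2.06%, 2.04%, 2.57% and 3.34% were called lower at these times. In either direction 1.57%, 2.72%, 7.09%, 3.43%, 3.4%, 4.19% and 5.37% were called. The members' medians were -0.21, -0.11, -0.31, -0.26, -0.13, -0.26 and -0.27 in the same order of times, and with ERCC scaling they were positive at 6 h (0.41) and 12 h (0.19), none called. With the replicate number as a block over all times, which does not pair the arms within a time, the counts were 8, 3, 17, 12, 6, 10 and 12 (8.08%, 8.95%, 17.4%, 12.4%, 10.3%, 12.7% and 16.2% of all genes). Besides PSMB10, the members called were PSMA7, PSMB3 and PSMB6 at 6 h, PSMD11 and PSME3 at 8 h, PSME3 at 10 h, PSMG1 and PSMC3IP at 12 h, and PSMD11, PSMD14, PSMB2, PSMG1 and PSMC3IP at 14 h. These counts rested on single libraries. At 6 h it was 13 with Tet plus 6 h replicate 1 left out and 1 with replicate 2 of either arm left out, and at 0, 3, 8, 10 and 12 h it was 0 to 1 with any of the 4 libraries left out, and at 14 h it was 0 to 4. No Tet plus library reached a Tet minus library in 24, 16, 30, 32, 22, 35 and 30 of 44 members from 0 to 14 h, where this held for 21.4%, 19.2%, 22.9%, 22.6%, 23.4%, 22.8% and 20.1% of all genes. Whether the arm difference depended on time within 0 to 14 h was tested with an interaction over the 7 times: 0 members passed, 0 had an unadjusted p under 0.05, and 2 of all genes passed (0.0138%).

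**Figure D3:**
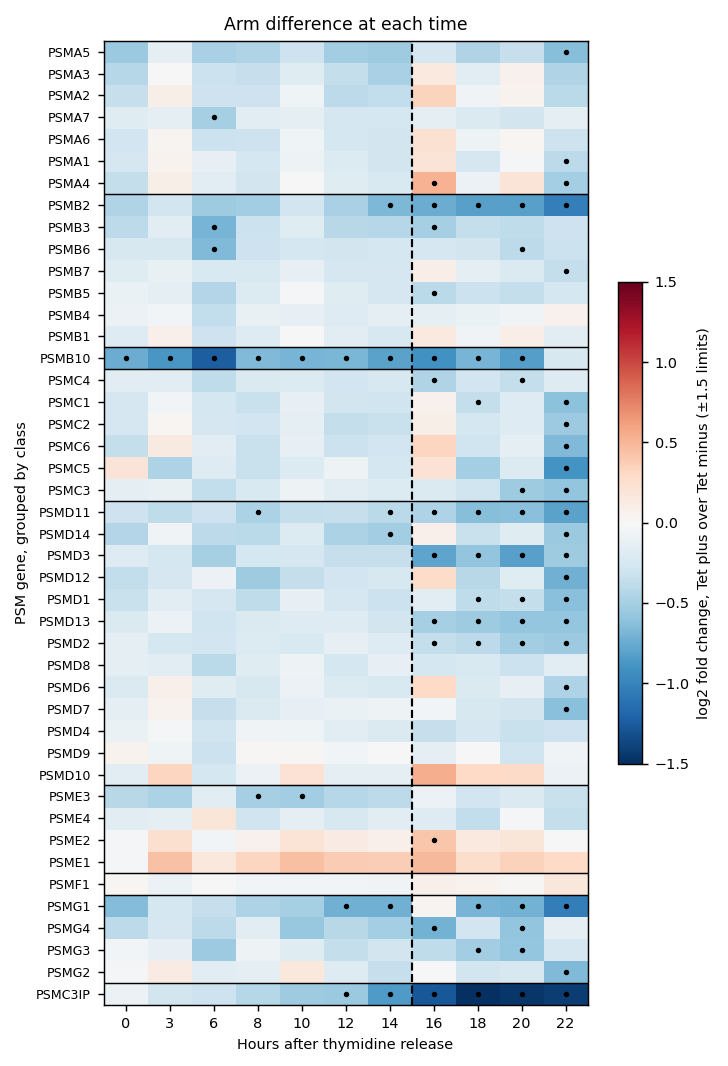
Log2 fold change, Tet plus over Tet minus, of each tested PSM gene (rows, by class) at each time (columns, hours after thymidine removal); dots mark differences past the threshold and the dashed line stands before 16 h, from which arm and lane cannot be told apart. PSMB10 is lower and dotted at all 7 early times, and the PSME1 mean is higher in Tet plus from 3 h on. At 22 h 22 members are called lower (16.3% of all genes). With ERCC scaling all 44 were higher in Tet plus at 16 to 22 h, as were 99.8% of all genes.

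At 16 to 22 h, where arm and lane cannot be told apart, 31 members were lower and 2 higher in Tet plus cells (26.8% and 26.3% of all genes), with a median of -0.27, while with ERCC scaling 0 were lower and all 44 higher (99.8% of all genes). Under that scaling the median of all genes was 4.40 and that of the members 4.14, a gap of -0.26. Since it moves all genes of a library alike, a gap near that without it (-0.29) was fixed in advance. By class, all 6 ATPases (median -0.30), 10 of 13 non-ATPase proteins (-0.30), 5 of 7 constitutive beta subunits (-0.31) and all 4 assembly chaperones (-0.43) were lower, and so were 2 of 7 alpha subunits (-0.10), PSMA5 and PSMA7. At 16, 18, 20 and 22 h singly, 13, 11, 14 and 22 members were called (27%, 18.7%, 23.9% and 28.4% of all genes). All were lower but PSMA4 and PSME2, which were higher at 16 h, while 14%, 11.2%, 13.7% and 16.3% of all genes were lower. With 1 library left out the counts were 7 to 10, 5 to 9, 7 to 12 and 12 to 21 in the same order of times. They were lowest without Tet plus replicate 2 at 16 h (7), without replicate 2 of either arm at 18 h (5 each), without Tet plus replicate 1 at 20 h (7) and without Tet minus replicate 2 at 22 h (12); without Tet plus replicate 1 at 18 h 6 were called, without either Tet minus library at 20 h 9, and without Tet plus replicate 2 at 22 h 13. With the replicate block 17, 15, 18 and 24 members were called (38.9%, 30%, 36.8% and 41.2% of all genes). At 16 h those 17 were 12 lower and 5 higher (19.5% and 19.4% of all genes), PSMC6, PSMD10 and PSME1 being higher besides PSMA4 and PSME2. The calls of PSMA7, PSMB7, PSMC5, PSMC6, PSMD12 and PSME4 over 16 to 22 h each ended with any of 3 to 9 of the 16 libraries left out, with an adjusted p of up to 0.130 (PSMB7, Tet minus 18 h replicate 2).

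The 2 members that were higher were both PA28 genes. PSME1 had 51.7, 60.5 and 68.6 CPM (lowest, median, highest of 8) in Tet plus, against 42.0, 46.3 and 50.6 CPM in Tet minus libraries, with no overlap (0.35, adjusted p = 0.00411, SE 0.0990). PSME2 had 67.8, 78.5 and 96.5 CPM in Tet plus, against 62.8, 70.6 and 74.7 CPM in Tet minus libraries (0.19, adjusted p = 0.0101, SE 0.0591), with overlap. PSMB10 had 13.7, 16.7 and 19.2 CPM in Tet plus, against 18.9, 27.0 and 35.7 CPM in Tet minus libraries (-0.67, adjusted p = 8.47e-07, SE 0.0916), and at 22 h it did not pass: 18.3 and 19.02 CPM in Tet plus, against 25.1 and 18.9 CPM in Tet minus libraries. PSMG1 was at -0.60 (SE 0.0943) and PSME3 at -0.23 (SE 0.0704), both past the threshold. With ERCC scaling all of these were positive, PSMB10 at 3.76.

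The difference between the late and early arm differences was tested in the same fit. It passed in 6 members, all more negative late, where 12.3% of all genes were more negative and 8.24% more positive. The members' share was near that of all genes, and their median was -0.0079, beside 0.0035 for all genes. Under the replicate block 7 members were more negative and 2 more positive late (17.2% and 14.4% of all genes): PSMC3 joined the 6, and PSMA3 (0.21, adjusted p = 0.0234) and PSMD10 (0.29, adjusted p = 0.0112) were the positive ones. The 6 that passed without the block were PSMC3IP (-0.99, adjusted p = 4.43e-08, SE 0.0999), the lid proteins PSMD13 (-0.34, SE 0.0663), PSMD3 (-0.37, SE 0.0975) and PSMD11 (-0.26, SE 0.0679), the scaffold PSMD2 (-0.25, SE 0.0624) and the beta subunit PSMB2 (-0.39, SE 0.111). Leaving out any 1 of the 44 libraries gave 6 to 7 members, and with ERCC scaling the late minus early value was positive in all 44 (median 4.26, all genes 4.27). PSMD3, for example, had 184, 207 and 241 CPM in Tet plus, against 282, 337 and 412 CPM in Tet minus libraries at 16 to 22 h, and 188, 265 and 319 CPM in Tet plus, against 291, 315 and 427 CPM in Tet minus libraries at 0 to 14 h. PSMD13 had 147, 154 and 164 CPM in Tet plus, against 196, 232 and 247 CPM in Tet minus libraries at 16 to 22 h, with no overlap. PSMC3IP had 19.02, 21.4 and 27.2 CPM in Tet plus, against 53.8, 58.0 and 63.1 CPM in Tet minus libraries there, also with no overlap.

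**Figure D4:**
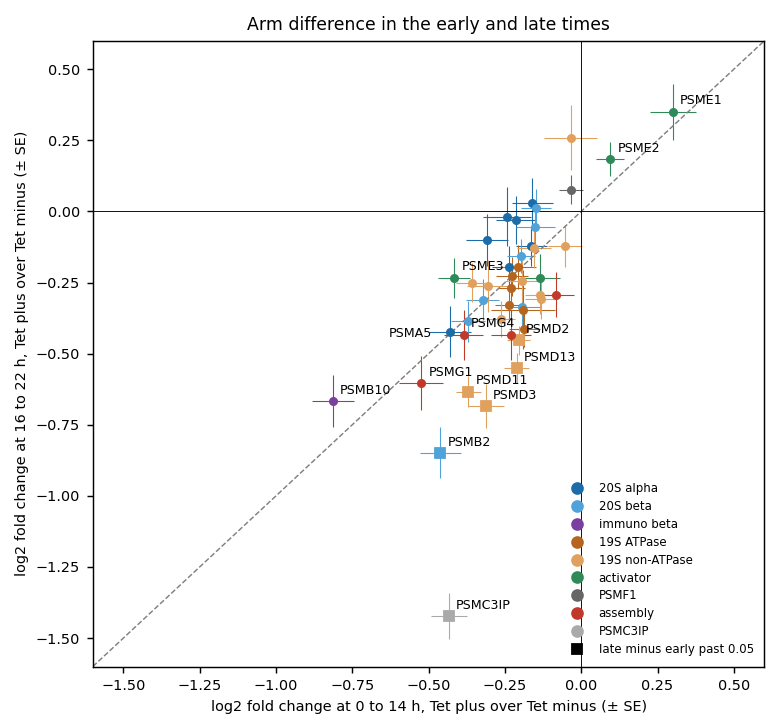
Log2 fold change, Tet plus over Tet minus, of each tested PSM gene at 16 to 22 h (y axis) against 0 to 14 h (x axis), with standard errors; the dashed line marks equal values. Squares mark the 6 members whose late minus early difference passed the test, all below the line, and PSME1 is positive at both. With ERCC scaling all 44 were positive at 16 to 22 h, where 99.8% of all genes were higher.

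Between 16 and 22 h, within each arm's own lanes, 9 members fell in Tet plus cells (4.65% of all genes) and 0 in Tet minus cells (0.475%), where 6 had an unadjusted p under 0.05. The 9 were PSMC5 (-1.15, SE 0.282), PSMG1 (-0.90, SE 0.191), PSMA4 (-0.78, SE 0.181), PSMD12 (-0.74, SE 0.185), PSMC6 (-0.64, SE 0.157), PSMB2 (-0.58, SE 0.179), PSMC1 (-0.55, SE 0.118), PSMD6 (-0.51, SE 0.145) and PSMD14 (-0.45, SE 0.139). PSMG1 had 35.3 and 30.0 CPM at 22 h and 54.3 and 67.9 CPM at 16 h in Tet plus cells, against 62.0 and 72.2 CPM at 22 h and 57.9 and 61.3 CPM at 16 h in Tet minus cells. PSMC6 had 125 and 108 CPM at 22 h and 167 and 197 CPM at 16 h in Tet plus cells, against 169.9 and 199 CPM at 22 h and 133 and 157 CPM at 16 h in Tet minus cells. For PSMC6 both 22 h libraries lay below both 16 h libraries in Tet plus and above them in Tet minus cells.

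The test of the arms' difference in that change passed in 10 members, all more negative in Tet plus (7.56% of all genes), namely PSMA1, PSMA4, PSMC1, PSMC2, PSMC6, PSMD6, PSMD7, PSMD12, PSMD14 and PSMG1, with values from -1.08 to -0.58. The count rested on single libraries of 2: it was 0 when replicate 2 of either arm at 22 h or Tet minus 16 h replicate 1 was left out, 1 with Tet plus 16 h replicate 2 left out, and otherwise up to 15. The count of 9 in Tet plus cells was 0 when replicate 2 of Tet plus 16 h or of Tet plus 22 h was left out, and 5 with Tet plus 22 h replicate 1 left out. Tet plus 16 h replicate 2 held the highest late Tet plus level of 33 of 44 members (18.2% of all genes), and Tet plus 22 h replicate 2 the lowest of 22 (19.2%). With the replicate block 19 members fell in Tet plus (9.8% of all genes) and 2 in Tet minus cells (5.34%), and the difference passed in 19, of which 18 were more negative in Tet plus (15.4%). With ERCC scaling 0 passed in any of these, with medians of the members of -0.67 in Tet plus and -0.24 in Tet minus cells beside -0.34 and -0.29 for all genes.

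**Figure D5:**
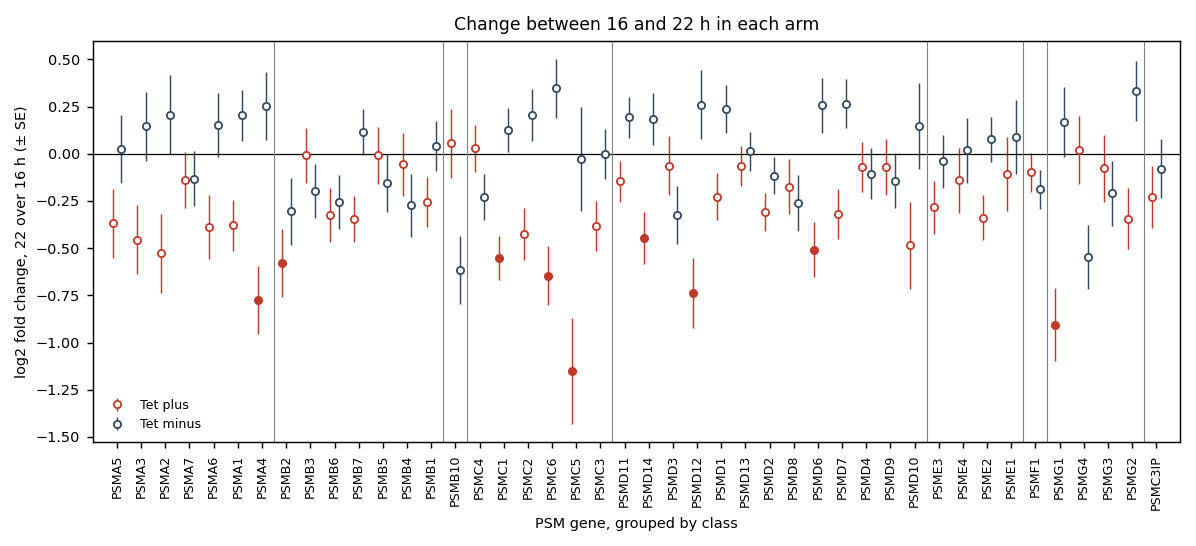
Log2 fold change between 22 h and 16 h within each arm (y axis, 22 over 16 h, with standard error) for each tested PSM gene (x axis, by class), Tet plus left of Tet minus; filled points passed the test. The 9 filled points are all Tet plus and below 0, from -1.15 for PSMC5 to -0.45 for PSMD14; with ERCC scaling none passed.

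Few members passed for change over the early course. Between 0 and 6 h, and between 8 and 12 h, 0 members passed in either arm (edgeR; 0 to 10 with an unadjusted p under 0.05 per contrast), where 2.5% (Tet plus) and 2.35% (Tet minus) of all genes changed between 0 and 6 h and 0.22% (Tet plus) and 0.833% (Tet minus) between 8 and 12 h. Under the replicate block PSMB6, PSMC3IP and PSMD3 fell between 0 and 6 h in Tet plus cells (3.72% of all genes), with log2 values from -0.49 to -0.42. Without the block, 4 members passed there with Tet plus 0 h replicate 2 left out and 1 with Tet plus 6 h replicate 1 left out. Over all 7 early times, which spanned lanes, PSMC3IP alone passed in Tet plus (10.4% of all genes), and PSMD14, PSMC6 and PSMC3IP passed in Tet minus cells (14.5%). PSMD14 had means of 168 CPM at 14 h and 132 CPM at 0 h in Tet plus, against 241 CPM at 14 h and 179.9 CPM at 0 h in Tet minus cells (adjusted p = 0.114 in Tet plus and 0.00654 in Tet minus). With the replicate block 4 passed in Tet plus (25.9% of all genes) and 11 in Tet minus cells (34.3%), both below the share of all genes. The count of 1 in Tet plus was 3 without Tet plus 0 h replicate 1 and 2 without its replicate 2. Time and lane set cannot be told apart in these 2 tests.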

How the data were processed

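The data were RNA-seq gene counts from 44 libraries, 2 per arm and time, described in the design as biological replicates. The deposited table gives whole read counts for each gene, which the authors left without normalisation; per the submitters' processing notes they used TopHat2 2.0.5, HTSeq and hg19. The annotation, the HTSeq version and the strand setting are each "not given in the sources used here", so overlapping genes may share counts (13 of the 49 members share exon bases with another gene of the table). The 92 ERCC rows stayed out of library sizes and tests.

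Counts were filtered by filterByExpr and fitted across all genes with edgeR 4.0.16 (limma 3.58.1, R 4.3.3; TMM, glmQLFit, glmQLFTest), 1 mean per group of arm and time, without the replicate block. CPM use TMM library sizes, and an SE is the log2 fold change over the square root of F. Members, lists and comparisons were chosen with earlier results of these data known. Alternatives were DESeq2 1.42.0, RLE and ERCC scaling, no filter, replicate blocks, fewer times and leaving out each library. The block meant unless stated otherwise was a single shift for replicate number over all times, which does not pair the arms within a time. A block within each time was run only for the arm differences over 0 to 14 h and 16 to 22 h. Lane sets and leaving out 0 h were added after seeing the data. Same-numbered libraries deviated together at every time (lowest r 0.373 at 0 to 14 h and 0.263 at 16 to 22 h, across 10090 genes). A shift common to a replicate number over all times would give this too, so it does not show pairing within a time. The naming rule took MYCN, in each class up to 2 members with the lowest and 2 with the highest fold change past the threshold at 0 to 14 h, up to 3 by smallest p in the other comparisons, the immunoproteasome and PA28 genes, and from each list up to 4 genes by adjusted p; other members and the genes POMP, NFE2L1, NFE2L3, IRF1, TAP1, TAP2 and HLA-B were named after their values were seen. The floor of 3 counts and count precision cover counting error only. The procedure was tested on simulated counts drawn without replicate, lane or run effects, so that test cannot speak to such effects in these data.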

Additional observations from a re-analysis of the deposited data

Results flagged for a closer look

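The arm difference changed between the early and the late times in 6 members, by the test of the difference itself (edgeR, adjusted over all genes), all more negative late. That is 13.6% of the 44, near the 12.3% of all genes that were more negative late (20.6% changed in either direction), and the members' median was -0.0079. The late minus early log2 values were -0.99 for PSMC3IP (adjusted p = 4.43e-08), -0.34 for PSMD13 (0.000474), -0.25 for PSMD2 (0.00484), -0.26 for PSMD11 (0.00595), -0.37 for PSMD3 (0.00688) and -0.39 for PSMB2 (0.0134). Late libraries of the arms lay in different lanes and differed in their ERCC share, which cannot be told apart from the arm. With ERCC scaling all 44 members were positive, and 99.5% of all genes were called more positive late.

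The change between 16 and 22 h differed between the arms in 10 members (22.7% of the 44), all more negative in Tet plus, as in 7.56% of all genes (11.1% in either direction). The log2 differences were -1.08 for PSMG1 (adjusted p = 0.0119), -1.03 for PSMA4 (0.0116), -0.997 for PSMD12 (0.0163), -0.99 for PSMC6 (0.00590), -0.76 for PSMD6 (0.0186), -0.68 for PSMC1 (0.0113), -0.63 for PSMD14 (0.0379), -0.63 for PSMC2 (0.0361), -0.59 for PSMD7 (0.0400) and -0.58 for PSMA1 (0.0492). With ERCC scaling 0 of them passed and the members' median was -0.40, beside -0.03 for all genes, and leaving out single libraries gave 0 to 15 members. With the replicate block 18 members were more negative in Tet plus (15.4% of all genes) and 1 more positive.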

How the results depend on the processing

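With RLE scaling, DESeq2, no filter, the fit of only the times compared, either replicate block or without 0 h, 33 to 37 members fell and 1 rose at 0 to 14 h, and 29 to 31 fell and 2 to 3 rose at 16 to 22 h (where run). With ERCC scaling 0 fell and 0 rose at 0 to 14 h. At 16 to 22 h 0 were lower and 44 higher, as were 99.8% of all genes (median of all genes 4.40). The named genes turned positive there: PSMA5 3.99, PSMA3 4.28, PSMB2 3.54, PSMB3 4.04, PSMB10 3.76, PSMC4 4.09, PSMC1 4.13, PSMC3IP 2.96, PSMD11 3.77, PSMD14 4.15, PSME3 4.15, PSMG1 3.75, PSMG4 3.97, PSMD13 3.87, PSMD2 3.98, PSMD1 4.04, PSMD3 3.72 and PSMC6 4.19. The cause was not tested. By lane set, chosen after seeing the data and with fewer libraries, 17, 22 and 6 members fell and 0, 1 and 0 rose. Without the filter 0 members were called at 0, 8 and 10 h and 6 for the arms' difference in the change from 16 to 22 h. With the replicate block over all times, 8, 3, 17, 12, 6, 10 and 12 were called at 0 to 14 h, 3 for 6 minus 0 h in Tet plus, 19 and 2 for 22 minus 16 h in Tet plus and Tet minus, 19 for their difference, and 4 and 11 over 0 to 14 h in Tet plus and Tet minus. Leaving out single libraries gave 30 to 36 lower and 1 to 2 higher at 0 to 14 h, 26 to 31 lower and 2 to 3 higher at 16 to 22 h, 0 to 1 called at 0, 3, 8, 10 and 12 h, 1 to 13 at 6 h, 0 to 4 at 14 h, 7 to 10, 5 to 9, 7 to 12 and 12 to 21 at 16, 18, 20 and 22 h, 0 to 4 for 6 minus 0 h in Tet plus, 0 to 7 and 0 to 1 for 22 minus 16 h in Tet plus and Tet minus, 0 to 15 for their difference, and 1 to 3 and 2 to 4 over 0 to 14 h in Tet plus and Tet minus. At 16 to 22 h, calls of PSMA7 (adjusted p up to 0.0963), PSMB7, PSMC5, PSMC6, PSMD12 and PSME4 ended with at least 3 of the 16 libraries left out singly. With 2 libraries per group, single times gave few calls, and PSMD5 and PSMB11, with at most 5 counts in a library, had too little depth to compare.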
